A study of Homo sapiens with 12 samples.

Results

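The JAK kinases JAK1, JAK2 and TYK2, the transcription factors STAT2, STAT3, STAT5B, STAT6 and IRF9, and the inhibitor SOCS3 were followed as transcripts in SW1736, an established cell line from an anaplastic thyroid cancer. The 9 genes were taken by their symbols from the 56832 symbols of each count file. RNA sequencing covered 12 libraries in 4 groups of 3. All groups were SW1736 cells with a pCDH vector, held for 24 h in charcoal-stripped serum without hormone and then treated for 24 h. EV cells carried the empty vector pCDH-EV and TRB cells carried pCDH-TRB, which supplies thyroid hormone receptor beta. Each was given 10 nM triiodothyronine (T3), the active thyroid hormone, or its sodium hydroxide vehicle, which makes the groups EV vehicle, EV T3, TRB vehicle and TRB T3. The labels give neither the promoter of the vector nor whether a line was 1 clone. They also do not say that replicates were separate cultures, so p-values measure only the spread between these libraries.

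Receptors for interferons and many cytokines have no kinase activity of their own and rely on JAK kinases bound to their inner tails. The activated kinases phosphorylate STAT proteins, which pair, enter the nucleus and bind DNA at gamma-activated sites (GAS). After type I interferon, a complex named ISGF3 that holds STAT2 and IRF9 binds interferon-stimulated response elements (ISRE). SOCS3 is induced by STAT3 and blocks JAK kinases at receptors of the interleukin-6 family, which closes a feedback loop. Thyroid hormone receptors are nuclear receptors that bind DNA themselves and belong to a separate pathway.

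Counts within genes totalled 3819306 to 13086717 per library. Each level below is in CPM, the count a gene would have in a library of standard size, with sizes adjusted by trimmed mean of M-values (TMM). THRB, the gene of the supplied receptor, stood at 14.6 ± 1.39 CPM (SD, n = 3) in EV vehicle, 14.9 ± 3.04 in EV T3, 80.1 ± 0.314 in TRB vehicle and 269.6 ± 69.8 in TRB T3. TRB T3 replicate 2 stood apart from its group, so fits were made on all 12 libraries and on the other 11. Some results are given for 1 of these fits only. All 6 epithelial markers averaged at least 1 CPM in EV vehicle, against 3 of 9 thyroid markers, and TSHR and FOXE1 were at 0 in all 12 libraries. Of 9 leukocyte markers CD3E, CD2, MS4A1 and NKG7 were at 0 in all 12 libraries, and the sum of the 9, 788 to 1589 CPM, was almost all lysozyme, LYZ. The 4 endothelial markers summed to at most 0.317 CPM. Non-unique alignments formed 69.6% to 92.0% of the entries of EV T3 files and 33.1% to 66.3% of those of EV vehicle, and their part in the comparison of these groups was not tested. In bulk RNA, fewer cells that express a gene and less RNA per cell cannot be told apart.

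**Figure D1:**
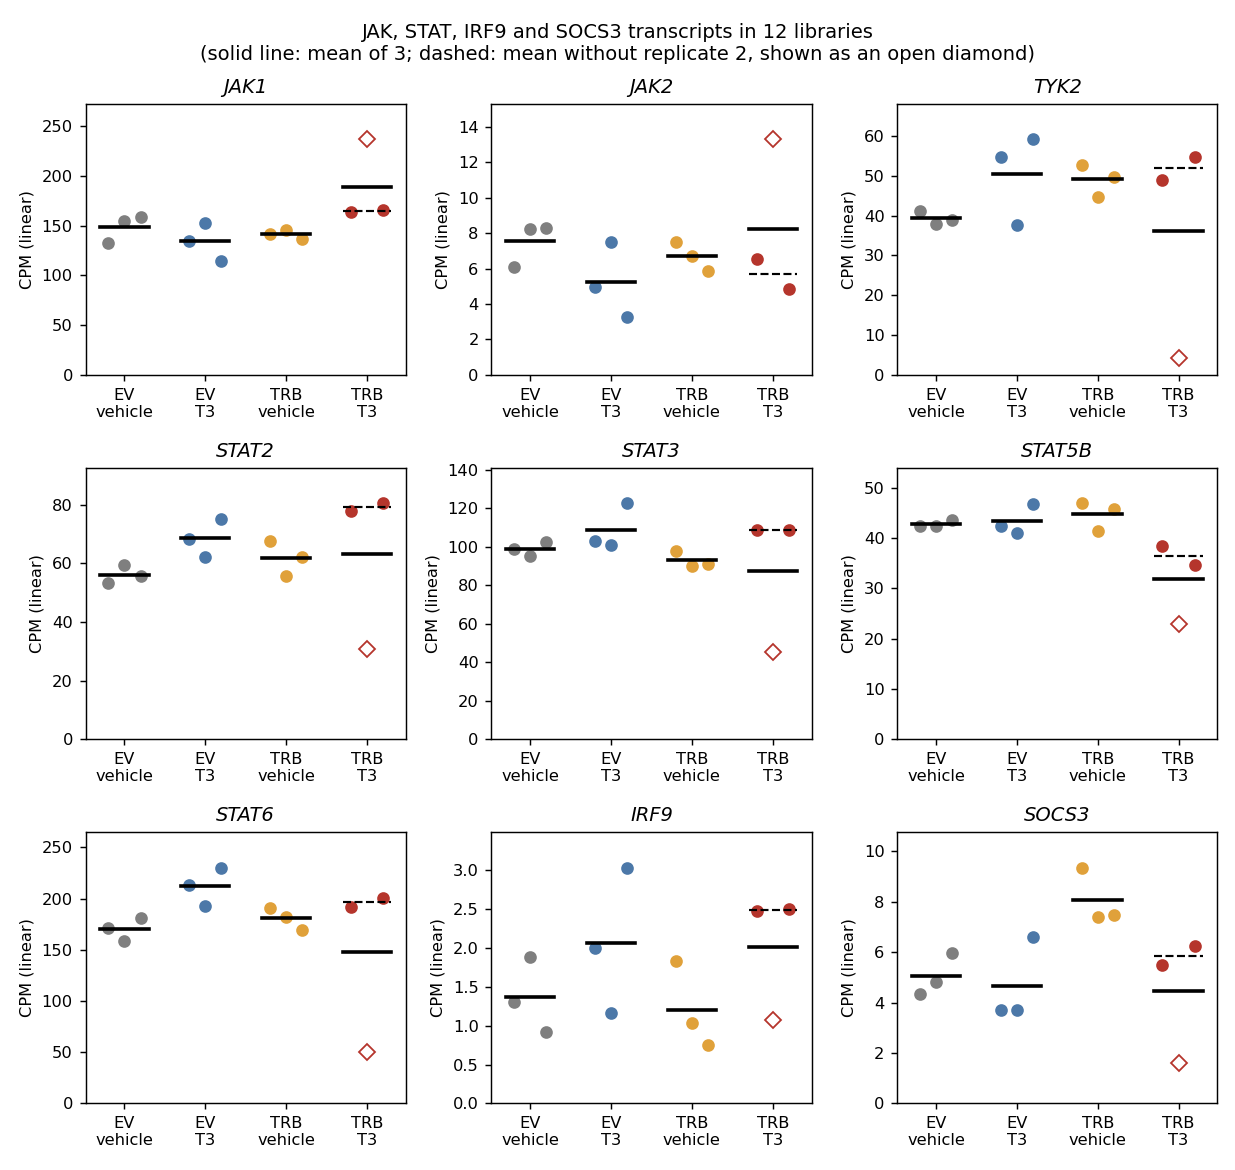
CPM on a linear scale of the 9 genes in the 12 libraries by group, each point 1 library, with the mean of 3 as a solid line; the open diamond is TRB T3 replicate 2 and the dashed line the mean of the other 2. TYK2 in that library stood at 4.32 CPM against 48.9 and 54.8 in replicates 1 and 3, while JAK1 stood at 237 CPM against 164 and 165.

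Per kilobase of GENCODE 29 exon, JAK1 and STAT6 had the highest levels of the 9 in EV cells with vehicle, at 23.5 ± 2.20 and 23.3 ± 1.57 CPM per kb (SD, n = 3). These did not differ beyond their spread. STAT3 followed at 11.2 ± 0.397 CPM per kb, STAT2 at 9.18 ± 0.490, STAT5B at 6.64 ± 0.111 and TYK2 at 5.80 ± 0.232. SOCS3 stood at 1.85 ± 0.306 CPM per kb, JAK2 at 1.22 ± 0.204 and IRF9 at 0.360 ± 0.127. The IRF9 value may be too low, because its exons overlap those of another gene, as described below. From STAT3 to IRF9 the ranges of neighbours in this order did not overlap. All 9 passed the filter on low counts.

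JAK1 (chr1:64833229-65067746, minus strand), the kinase shared by interferon, interleukin-6 family and many other receptors, had its highest levels in TRB cells with T3. Replicates 1 to 3 of that group stood at 164, 237 and 165 CPM, against 141, 146 and 137 in TRB vehicle. EV libraries stood at 133, 155 and 158 CPM with vehicle and 135, 153 and 115 with T3. Each of the 3 TRB libraries with T3 lay above all 9 others. The log2 difference between T3 and vehicle in TRB cells was 0.42 (95% interval 0.01 to 0.83, edgeR adjusted p 0.156) with 12 libraries and 0.27 (-0.01 to 0.55, adjusted p 0.126) with 11, so it did not pass the adjusted threshold of 0.05. In EV cells the same difference was -0.15 (-0.55 to 0.26, adjusted p 0.939) with 12 libraries and -0.14 (-0.39 to 0.11, adjusted p 0.436) with 11. The difference of these responses was 0.57 (-0.01 to 1.14, adjusted p 0.255) with 12 libraries and 0.41 (0.04 to 0.78, adjusted p 0.128) with 11. Between TRB and EV cells with T3 it was 0.49 (0.08 to 0.90, adjusted p 0.139) and 0.35 (0.07 to 0.63, adjusted p 0.0763).

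TYK2 (chr19:10350533-10380572, minus strand), the partner of JAK1 at the type I interferon receptor, stood at 48.9, 4.32 and 54.8 CPM in TRB cells with T3. The other groups stood at 41.0, 38.0 and 38.9 CPM in EV vehicle, 54.8, 37.6 and 59.2 in EV T3, and 52.8, 44.7 and 49.8 in TRB vehicle. The 3 TRB libraries with vehicle lay above the 3 EV libraries with vehicle, and replicate 2 of TRB T3 lay below all other libraries. With 12 libraries the log2 response of TYK2 to T3 in TRB cells was -0.44 with an interval of -1.79 to 0.91, and with 11 it was 0.13 (-0.22 to 0.47, edgeR adjusted p 0.585). TRB against EV in vehicle gave 0.32 (-1.03 to 1.67, adjusted p 1) and 0.34 (0.02 to 0.65, adjusted p 0.394). With a GC trend taken out of each library, as described below, that difference was 0.11 with 12 libraries (adjusted p 0.979) and with 11 (adjusted p 0.480).

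JAK2 (chr9:4984390-5129948, plus strand), the kinase of the growth hormone, prolactin and erythropoietin receptors, was low. It stood at 6.08, 8.25 and 8.27 CPM in EV vehicle, 4.94, 7.50 and 3.29 in EV T3, 7.52, 6.72 and 5.88 in TRB vehicle, and 6.53, 13.3 and 4.87 in TRB T3. The groups overlapped in every comparison. The log2 response to T3 was 0.28 (-0.55 to 1.10, edgeR adjusted p 0.629) in TRB cells with 12 libraries and -0.16 (-0.72 to 0.41, adjusted p 0.691) with 11. In EV cells with 11 libraries it was -0.45 (-0.99 to 0.09, adjusted p 0.247).

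STAT2 (chr12:56341597-56360107, minus strand), the STAT of the ISGF3 complex, rose with T3 in TRB cells in the fit of 11 libraries. TRB cells stood at 77.7, 30.8 and 80.4 CPM with T3 and at 67.7, 55.6 and 62.3 with vehicle, so replicates 1 and 3 with T3 lay above the vehicle libraries and replicate 2 lay below them. The log2 change was 0.40 (SE 0.113, 95% interval 0.16 to 0.65, edgeR adjusted p 0.0147) with 11 libraries, and 0.03 (-0.63 to 0.69, adjusted p 0.955) with 12. EV cells stood at 53.4, 59.3 and 55.5 CPM with vehicle and at 68.4, 62.2 and 75.2 with T3, with no overlap. The EV change of 0.28 (0.06 to 0.51) with 11 libraries had an adjusted p of 0.106 and did not pass. With 12 libraries the EV change was 0.29 (-0.37 to 0.95, adjusted p 0.935). The responses of TRB and EV cells were not shown to differ. Their difference was 0.12 (-0.21 to 0.45, adjusted p 0.635) with 11 libraries and -0.26 (-1.19 to 0.67, adjusted p 0.695) with 12.

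IRF9 (chr14:24161265-24166565, plus strand), the DNA-binding partner of STAT2 in ISGF3, had the lowest counts of the 9, at 6 to 33 per library. It stood at 1.30, 1.88 and 0.919 CPM in EV vehicle, 2.01, 1.16 and 3.04 in EV T3, 1.83, 1.03 and 0.755 in TRB vehicle, and 2.48, 1.08 and 2.50 in TRB T3. Replicates 1 and 3 of TRB T3 lay above the 3 TRB vehicle libraries, and replicate 2 lay within their range. The log2 response in TRB cells was 0.81 (-0.21 to 1.83, edgeR adjusted p 0.255) with 12 libraries and 1.12 (SE 0.405, adjusted p 0.0506) with 11. In EV cells it was 0.48 (-0.61 to 1.57, adjusted p 0.935) with 12 libraries and 0.42 (-0.50 to 1.35, adjusted p 0.532) with 11. Of its exon bases in GENCODE 29, 48.4% lie in exons of another gene on the same strand, AL136295.5, so reads of the 2 genes may have been split or left out in counting.

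STAT3 (chr17:42313324-42388442, minus strand), the factor activated by interleukin-6 family cytokines, stood at 109, 45.2 and 108 CPM in TRB T3 and at 97.9, 89.8 and 91.0 in TRB vehicle. EV libraries stood at 98.8, 95.2 and 102 CPM with vehicle and 103, 101 and 123 with T3. Replicate 2 of TRB T3 was the lowest of the 12 libraries, and the other 2 of its group lay above TRB vehicle. The log2 response in TRB cells was -0.09 (-0.70 to 0.53, edgeR adjusted p 0.850) with 12 libraries and 0.27 (0.05 to 0.50, adjusted p 0.0602) with 11. In EV cells with 11 libraries it was 0.14 (-0.07 to 0.34, adjusted p 0.353).

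STAT5B (chr17:42199177-42288370, minus strand), a STAT of growth hormone and interleukin-2 family signals, had its lowest levels in TRB cells with T3. That group stood at 38.4, 22.8 and 34.6 CPM, against 47.0, 41.5 and 45.8 in TRB vehicle. EV libraries stood at 42.4, 42.5 and 43.7 CPM with vehicle and 42.4, 41.0 and 46.8 with T3. All 3 TRB libraries with T3 lay below the 9 others. The log2 response in TRB cells was -0.48 (-0.91 to -0.05, edgeR adjusted p 0.128) with 12 libraries and -0.24 (-0.48 to -0.01, adjusted p 0.108) with 11, and neither passed. In EV cells it was 0.02 (-0.41 to 0.45, adjusted p 0.987) with 12 libraries. The difference of the responses was -0.50 (-1.11 to 0.11, adjusted p 0.309) and -0.26 (-0.58 to 0.06, adjusted p 0.260).

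STAT6 (chr12:57095408-57111362, minus strand), the factor of interleukin-4 and interleukin-13 signals, stood at 171, 158 and 181 CPM in EV vehicle and at 213, 193 and 230.3 in EV T3, with no overlap. TRB cells stood at 190.5, 182 and 170 CPM with vehicle and at 192, 50.5 and 201 with T3. The EV response was 0.32 on the log2 scale with intervals of -0.53 to 1.17 with 12 libraries (edgeR adjusted p 0.938) and 0.11 to 0.52 with 11 (adjusted p 0.0602). With the GC trend taken out it was 0.12 with 12 libraries (adjusted p 0.466) and with 11 (adjusted p 0.178). In TRB cells the response was -0.29 (-1.14 to 0.56, adjusted p 0.624) with 12 libraries and 0.17 (-0.06 to 0.39, adjusted p 0.240) with 11.

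SOCS3 (chr17:78356778-78360925, minus strand) had its highest levels in TRB cells with vehicle, at 9.35, 7.41 and 7.47 CPM. The other groups stood at 4.34, 4.82 and 5.97 CPM in EV vehicle, 3.70, 3.70 and 6.58 in EV T3, and 5.48, 1.62 and 6.25 in TRB T3. All 3 TRB libraries with vehicle lay above the 9 others. TRB against EV in vehicle gave a log2 difference of 0.66 with 12 libraries (-0.20 to 1.53, edgeR adjusted p 1) and 0.66 with 11 (0.23 to 1.09, adjusted p 0.333). The response to T3 in TRB cells was -0.82 (-1.69 to 0.04, adjusted p 0.185) with 12 libraries and -0.42 (-0.89 to 0.05, adjusted p 0.162) with 11. Neither difference passed over all genes.

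**Figure D2:**
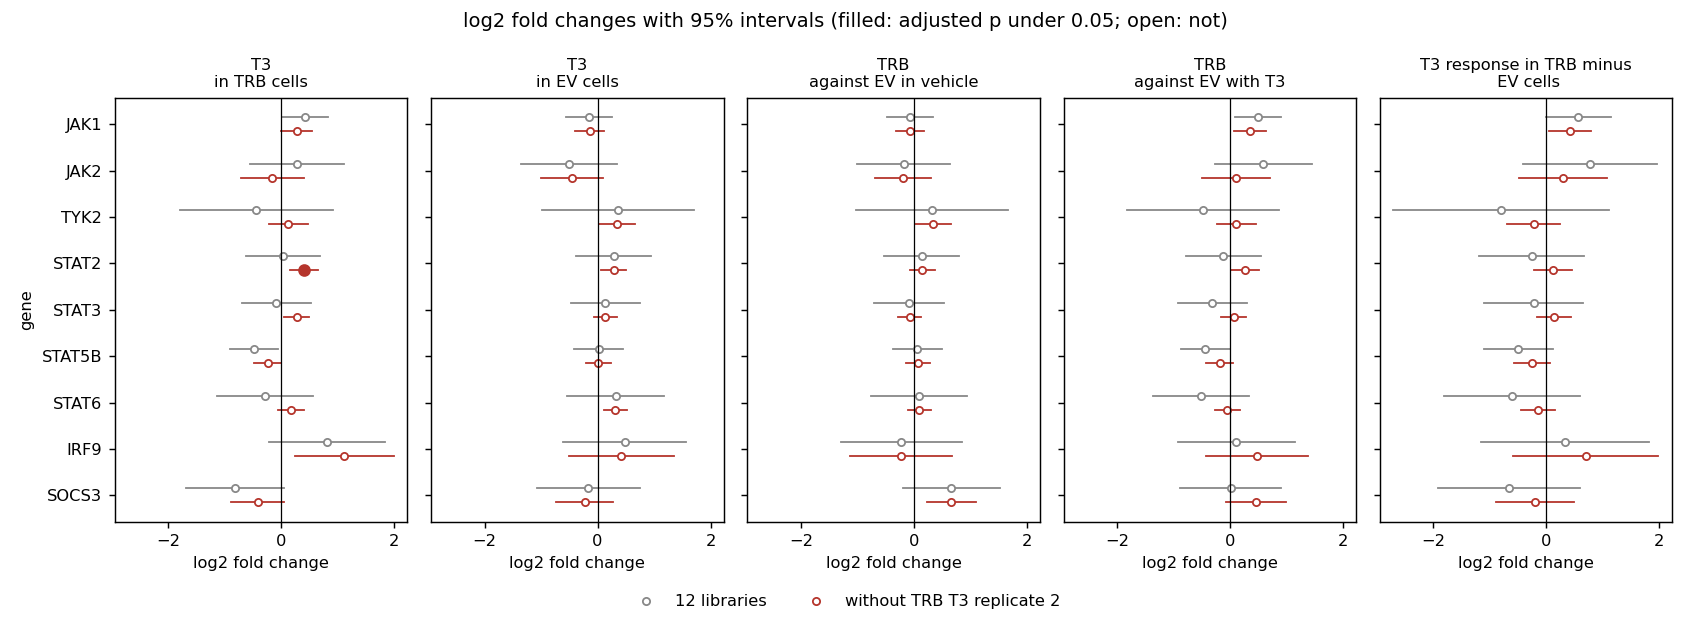
Log2 fold changes of the 9 genes (x axis) in 5 comparisons, with 95% intervals as lines, for 12 libraries (grey) and 11 libraries (red); filled points passed an adjusted p of 0.05. Only STAT2 in the response to T3 of TRB cells with 11 libraries, at 0.40, is filled.

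In edgeR with 12 libraries, 0 of the 9 genes passed in any of the 5 comparisons, and 0 passed in DESeq2. At an unadjusted p under 0.05 there were 2 members (JAK1 and STAT5B) in the T3 response of TRB cells, where 30.3% of all genes were, and the same 2 between TRB and EV cells with T3, where 25.5% were. There were 0 in the T3 response of EV cells, between TRB and EV in vehicle and in the difference of responses, where 6.1%, 1.48% and 20% of all genes were. By the adjusted p, of all 14431 genes tested, 14.7% passed in the T3 response of TRB cells, 0.229% in that of EV cells, 0.0208% between TRB and EV in vehicle, 6.68% between them with T3 and 2.59% in the difference of responses. Without TRB T3 replicate 2, 1 of the 9 passed in the T3 response of TRB cells, against 33.3% of 14825 genes. In that fit 0 of the 9 passed in the other 4 comparisons, where 7.33%, 0.0742%, 19.7% and 15.2% of all genes passed, in the order given above. The unadjusted counts there were 4, 3, 2, 2 and 1 of 9, beside 42.3%, 28.2%, 12.4%, 31.2% and 30.3% of all genes. The median log2 response of the 9 in TRB cells was 0.17 beside -0.01 for all genes tested with 11 libraries, and -0.09 beside 0.01 with 12. In EV cells it was 0.14 beside 0.01 with 11. The comparisons with TRB T3 share its libraries, so their values for a gene are not independent.

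The departure of TRB T3 replicate 2 from replicates 1 and 3 followed the GC content of the transcripts. Across 12491 tested genes with a GC value, the Spearman correlation of the log2 difference with GC was -0.90, and over the 9 members it was -0.82. These genes share the same 3 libraries, so the values are descriptions. JAK2, at 40.1% GC the lowest of the 9, stood 1.21 higher on the log2 scale in that library. TYK2 at 61.0% GC differed by -3.52 and SOCS3 at 61.9% GC by -1.72. Replicate 2 of EV T3 departed from its replicates 1 and 3 the same way, to a smaller extent, with a log2 difference of 0.86 for JAK2 and -0.60 for TYK2. Replicate 3 of EV T3 departed from its replicates 1 and 2 the other way, by -0.85 for JAK2 and 0.38 for TYK2. Across the tested genes with a GC value, the Spearman correlation of each library's deviation with GC was 0.72, -0.26 and 0.83 in replicates 1 to 3 of EV T3.

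**Figure D3:**
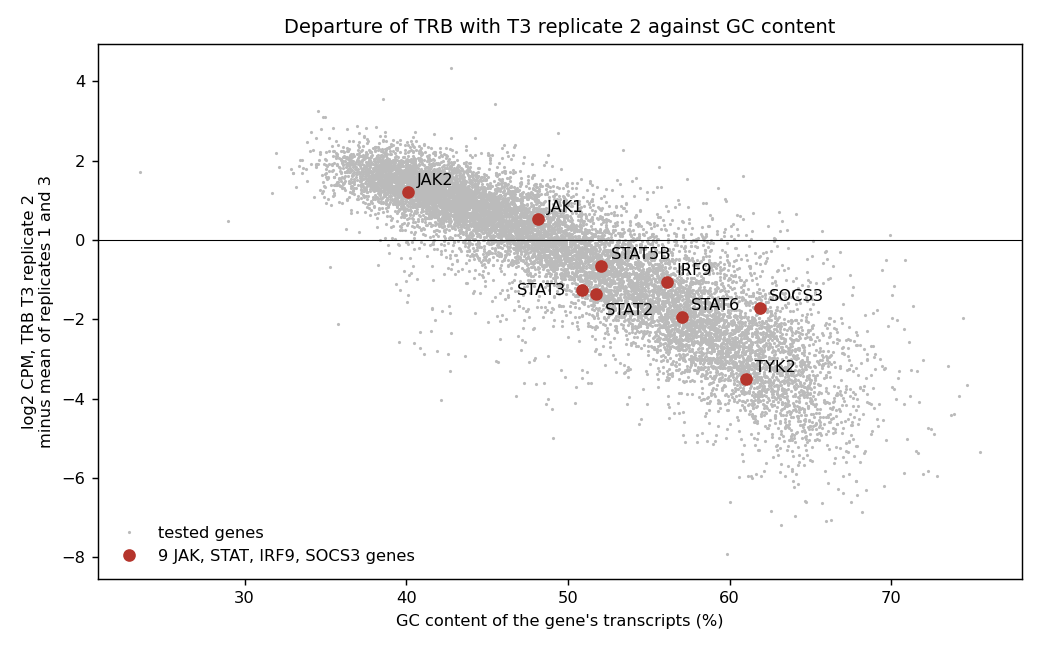
Log2 CPM of TRB T3 replicate 2 minus the mean of replicates 1 and 3 (y axis) against GC content in percent (x axis), with the 9 genes in red and tested genes in grey. The difference runs from 1.21 for JAK2 at 40.1% GC to -3.52 for TYK2 at 61.0%.

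With a smooth GC trend taken out of each library, and replicate 2 of TRB T3 left out, 5 of the 9 passed in the T3 response of TRB cells, where 56.6% of 12673 genes did, 3125 higher and 4048 lower. Without the offsets the calls of that fit were 2686 higher and 2252 lower. With the offsets the median log2 response of all genes was -0.08. Any part of a T3 response that follows GC is taken out with the trend. IRF9 rose by 0.99 (SE 0.368, edgeR adjusted p 0.0301), STAT2 by 0.31 (SE 0.0779, adjusted p 0.00274) and STAT3 by 0.19 (SE 0.0669, adjusted p 0.0256). STAT5B fell by 0.34 (SE 0.0781, adjusted p 0.00143) and SOCS3 fell by 0.53 (SE 0.180, adjusted p 0.0196). In EV cells 0 of the 9 passed against 18.3% of genes, and between TRB and EV in vehicle 0 against 1.14%. Between TRB and EV cells with T3, 3 of the 9 passed against 42.2%: JAK1 was higher by 0.30 (SE 0.0879, adjusted p 0.0115), STAT2 higher by 0.22 (SE 0.0808, adjusted p 0.0377), and STAT5B lower, at -0.23 (SE 0.0822, adjusted p 0.0297). In the difference of the T3 responses 1 of 9 passed against 35.1%, JAK1 at 0.34 (SE 0.118, adjusted p 0.0309). The differences that did not pass moved as well: with 11 libraries the offsets took the EV response from 0.28 to 0.17 for STAT2 and from -0.45 to -0.15 for JAK2, and SOCS3 between TRB and EV in vehicle from 0.66 to 0.40. In both fits of 11 libraries STAT2 was thus called higher with T3 in TRB cells. With the offsets on all 12 libraries the STAT2 change was 0.12 (SE 0.161, edgeR adjusted p 0.572) and did not pass. The call of STAT2 was thus made only with replicate 2 of TRB T3 left out.

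Promoters are shown because the members are themselves factors that bind ISRE and GAS elements, and because ISGF3 target genes moved with T3. The 250 bases before the start were taken from RefSeq (GRCh38.p14), which matched all 9 members, and searched on both strands for the ISRE core GAAANNGAAA (TTTCNNTTTC on the other strand) and the GAS core TTCNNNGAA. Capitals mark the matches. IRF9 (chr14:24161015-24161264, plus strand) holds the only match in these 250 bases among the 9 members, and STAT2 (chr12:56360108-56360357, minus strand) holds none there. IRF1 (chr5:132490774-132491023, minus strand), IFIT5 (chr10:89414318-89414567, plus strand) and IFIH1 (chr2:162318685-162318934, minus strand) are shown beside them as genes that rose with T3 in TRB cells. Each of these holds a match, while HERC6 and DTX3L, which also rose, hold neither core in the bases searched.
IRF9: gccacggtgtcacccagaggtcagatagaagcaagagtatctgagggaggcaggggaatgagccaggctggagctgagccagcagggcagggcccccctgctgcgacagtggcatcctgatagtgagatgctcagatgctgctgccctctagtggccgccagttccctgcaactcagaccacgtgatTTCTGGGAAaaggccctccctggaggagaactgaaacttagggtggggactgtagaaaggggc
STAT2: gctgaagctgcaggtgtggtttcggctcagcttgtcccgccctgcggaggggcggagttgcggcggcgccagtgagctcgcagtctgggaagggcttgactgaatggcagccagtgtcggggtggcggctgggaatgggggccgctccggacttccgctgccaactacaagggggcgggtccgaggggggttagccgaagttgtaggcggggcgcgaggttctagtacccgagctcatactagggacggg
IRF1: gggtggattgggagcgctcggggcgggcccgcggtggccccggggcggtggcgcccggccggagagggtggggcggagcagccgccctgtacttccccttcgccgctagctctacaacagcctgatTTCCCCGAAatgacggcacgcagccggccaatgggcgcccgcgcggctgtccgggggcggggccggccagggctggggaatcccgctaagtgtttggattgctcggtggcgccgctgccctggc
IFIT5: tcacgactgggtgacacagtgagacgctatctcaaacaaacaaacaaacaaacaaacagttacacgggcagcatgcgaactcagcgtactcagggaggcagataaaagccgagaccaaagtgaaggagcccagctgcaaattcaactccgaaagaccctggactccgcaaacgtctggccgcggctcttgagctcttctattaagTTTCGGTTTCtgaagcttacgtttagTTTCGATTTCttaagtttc
IFIH1: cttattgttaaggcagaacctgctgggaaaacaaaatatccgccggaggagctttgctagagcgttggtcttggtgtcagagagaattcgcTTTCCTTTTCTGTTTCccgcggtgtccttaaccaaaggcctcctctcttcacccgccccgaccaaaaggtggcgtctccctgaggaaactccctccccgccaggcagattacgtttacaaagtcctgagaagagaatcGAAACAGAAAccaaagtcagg

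Of 27305 RefSeq promoters of this length, 3.07% held the ISRE core and 6.78% the GAS core. Of the 9 members 0 held the ISRE core and 1 held the GAS core, IRF9, with its first base 63 bases before the start. In IRF1 the GAS core began 124 bases before the start, and in IFIT5 ISRE cores began 45 and 19 bases before it. IFIH1 held 3 ISRE cores, of which the pair at 159 and 153 bases before the start overlap. Of 21 promoters of ISGF3 target genes, 11 (52.4%) held the ISRE core and 2 the GAS core. Among the 12 of them whose genes rose with T3 in TRB cells with 11 libraries, 7 (58.3%) held the ISRE core. A match is a run of letters and not a measured site.

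Of 22 ligand genes 5 were abundant enough to test. With 11 libraries, where 33.3% of all genes passed, 1 of the 5 rose with T3 in TRB cells. This was CLCF1, a cytokine of the interleukin-6 family, which stood at 13.7 ± 0.534 CPM (SD, n = 3) with vehicle and at 20.5, 5.58 and 28.0 CPM with T3. Its log2 change was 0.86 (SE 0.148, edgeR adjusted p 0.000659) with 11 libraries and 0.41 (adjusted p 0.515) with 12. The median over the 5 was 0.36 beside -0.01 for all genes tested. Of the other JAK and STAT genes, JAK3 and STAT5A were tested and STAT5A rose, by 0.57 (SE 0.202, adjusted p 0.0461), and by 0.22 (adjusted p 0.649) with 12 libraries.

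Of 18 tested receptor chains, 4 rose and 3 fell with T3 in TRB cells with 11 libraries, where 33.3% of all genes passed. With 12 libraries 3 rose and 2 fell, where 14.7% of all genes passed. The median was 0.17. IL6R, the receptor chain that binds interleukin-6, stood at 7.52, 7.75 and 7.05 CPM in TRB vehicle and at 22.5, 18.0 and 23.0 with T3. In EV cells it stood at 10.4, 7.19 and 8.27 CPM with vehicle and at 4.63, 3.49 and 4.56 with T3, so the T3 libraries lay above vehicle in TRB cells and below it in EV cells. IL6R rose by 1.66 (SE 0.159, edgeR adjusted p 5.04e-06) in TRB cells and fell by 1.01 (SE 0.187, adjusted p 0.00804) in EV cells with 11 libraries. With 12 libraries the EV change was -1.03 (adjusted p 0.118) and the difference of responses was 2.54 (adjusted p 0.00206). IL20RA, a receptor chain for cytokines of the interleukin-10 family, stood at 9.76, 11.1 and 10.9 CPM in TRB vehicle and at 3.45, 7.20 and 2.37 with T3. IL20RA fell by 1.77 (SE 0.194, adjusted p 1.67e-05) with 11 libraries and by 1.32 (adjusted p 0.0209) with 12. IL13RA1 rose by 0.68 (SE 0.163, adjusted p 0.00594) and IL4R fell by 0.59 (SE 0.114, adjusted p 0.00162) with 11 libraries, 2 chains that form a receptor upstream of STAT6. With 12 libraries IL13RA1 stood at 1.17 (adjusted p 0.0321) and IL4R at -1.05 (adjusted p 0.109).

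Of 16 tested negative regulators besides SOCS3, 4 rose and 0 fell with T3 in TRB cells with 11 libraries, with a median of 0.15. In that fit 33.3% of all genes passed. With 12 libraries 2 rose, where 14.7% of all genes passed. With GC offsets on 11 libraries 5 rose and 1 fell, where 56.6% of genes passed. SOCS6, of the same family as SOCS3, stood at 46.2, 56.7 and 57.2 CPM in TRB vehicle and at 121, 403 and 131 with T3, all above the vehicle libraries. SOCS6 rose by 1.28 (SE 0.191, edgeR adjusted p 0.000220) with 11 libraries and by 2.03 (adjusted p 0.00921) with 12. PIAS1, which binds activated STAT proteins, rose by 0.67 (SE 0.170, adjusted p 0.00846), and by 1.04 (adjusted p 0.0317) with 12 libraries. PTPN6, a phosphatase that acts on JAK kinases, rose by 0.56 (SE 0.132, adjusted p 0.00577) with 11 libraries, and its value with 12 was 0.11 (adjusted p 0.861).

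Of 6 tested interferon regulatory factors besides IRF9, 4 rose and 1 fell with T3 in TRB cells with 11 libraries, and 2 rose and 1 fell with 12. Of all genes, 33.3% passed with 11 libraries and 14.7% with 12. IRF1, a target of STAT proteins and itself an activator of interferon-stimulated genes, stood at 11.5, 10.3 and 11.2 CPM in TRB vehicle and at 153, 57.6 and 157 with T3. In EV cells it stood at 14.99, 11.3 and 12.8 CPM with vehicle and at 40.7, 33.0 and 41.3 with T3. T3 libraries lay above vehicle libraries in both cell types, and those of TRB cells lay above those of EV cells. IRF1 rose by 3.86 (SE 0.138, edgeR adjusted p 1.03e-09) in TRB cells with 11 libraries and by 3.47 (adjusted p 0.000104) with 12. Its EV change was 1.58 (SE 0.133, adjusted p 2.82e-05) with 11 libraries and 1.56 (adjusted p 0.121) with 12. IRF2 rose by 0.87 (SE 0.152, adjusted p 0.000765), and by 0.95 (adjusted p 0.00677) with 12. IRF5 rose by 1.10 and IRF7 by 1.06 with 11 libraries (adjusted p 5.48e-05 and 0.00167), and with 12 they stood at 0.58 and 0.49 (adjusted p 0.442 and 0.622).

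Of 17 tested ISGF3 target genes, 14 rose and 1 fell with T3 in TRB cells with 11 libraries, with a median of 1.66 beside -0.01 for all genes. With 12 libraries 12 rose and 1 fell. Of all genes, 33.3% passed with 11 libraries and 14.7% with 12. HERC6 stood at 1.93, 1.72 and 1.18 CPM in TRB vehicle and at 19.1, 39.4 and 16.4 with T3, with no overlap. HERC6 rose by 3.52 (SE 0.221, edgeR adjusted p 1.21e-07) and IFIH1, a sensor of viral RNA, by 3.07 (SE 0.243, adjusted p 9.59e-07) with 11 libraries, and IFIH1 by 4.15 (adjusted p 0.00141) with 12. IFIT5 rose by 2.20 (SE 0.169, adjusted p 7.32e-07) and DTX3L by 1.66 (SE 0.121, adjusted p 4.52e-07) with 11 libraries. The 1 gene that fell was OASL, by 1.05 (SE 0.240, adjusted p 0.00459). IFIT2 had 0, 1 and 1 counts in TRB libraries with vehicle and 76, 73 and 48 with T3, and no fold is given for it. IFIT2 is among the 17, but it passed the filter on low counts only through TRB T3. Its place in the counts of genes that rose is therefore no support for a response of the list. With IFIT2 set against a floor of 3 counts per library the median was again 1.66. In EV cells 6 of the 17 rose and 0 fell with 11 libraries, with a median of 0.51, and 0 passed with 12. Of all genes, 7.33% and 0.229% passed in these 2 fits. IFIT1, IFIT2 and IFIT3, which are counted in the 17, had at most 3 counts in each EV library with vehicle. With IFIT2 and IFIT3 set against that floor, and IFIT1, whose mean with T3 lay under it, left out, the EV median was 0.41. Some markers of other cells also differed between T3 and vehicle in TRB cells, some higher and some lower. The 9 leukocyte markers summed to 804 to 983 CPM with vehicle and to 788 to 1589 with T3, ranges that overlap. Of these, the monocyte marker CD14 stood at 0.390 ± 0.0401 CPM (SD, n = 3) with vehicle and at 9.23, 0.180 and 9.74 with T3. The 3 mesenchymal markers, with CDH2 at 0 throughout, summed to 10.1 to 10.9 CPM with vehicle and to 148 to 303 with T3. FN1 carried that sum, at 10.2, 9.39 and 9.15 CPM with vehicle and 303, 147 and 275 with T3, and VIM, with at most 18 counts in these libraries, stood at 0.711, 0.689 and 1.51 CPM with vehicle and 0, 1.08 and 0.250 with T3. With 11 libraries FN1 rose by 4.97 (SE 0.123, adjusted p 4.57e-11). VIM passed the filter on low counts with 11 libraries but not with 12, and no fold is given for it. The 4 fibroblast markers, with COL3A1 at 0 throughout, summed to 25.3 to 27.8 CPM with vehicle and to 1.44 to 14.9 with T3. COL1A1, the 1 of them tested, fell by 0.86 (SE 0.210, adjusted p 0.00705) with 11 libraries and stood at -1.39 (adjusted p 0.130) with 12. The 9 thyroid markers summed to 8.48 to 11.1 CPM with vehicle and to 1.44 to 5.55 with T3. Their part in the responses was not tested.

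Of 16 tested STAT3 target genes, 6 rose and 3 fell with T3 in TRB cells with 11 libraries, with a median of 0.52. With 12 libraries 3 rose and 2 fell in this list. Of all genes, 33.3% passed with 11 libraries and 14.7% with 12. PIM1, a kinase gene induced by STAT proteins, stood at 7.62, 8.44 and 6.13 CPM with vehicle and at 82.3, 29.3 and 88.4 with T3. PIM1 rose by 3.58 (SE 0.162, edgeR adjusted p 7.47e-09) in TRB cells and by 1.90 (SE 0.160, adjusted p 2.82e-05) in EV cells with 11 libraries, and with 12 the EV value was 1.91 (adjusted p 0.0846). HIF1A, the oxygen-responsive factor, rose by 1.81 (SE 0.158, adjusted p 2.25e-06) in TRB cells and MYC, a growth regulator, fell by 1.40 (SE 0.142, adjusted p 8.47e-06). VEGFA fell in EV cells by 0.88 (SE 0.0821, adjusted p 6.45e-05), and its value with 12 libraries was -0.88 (adjusted p 0.0740). These genes answer to other pathways as well, and the lists were chosen with results of these data known.

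**Figure D4:**
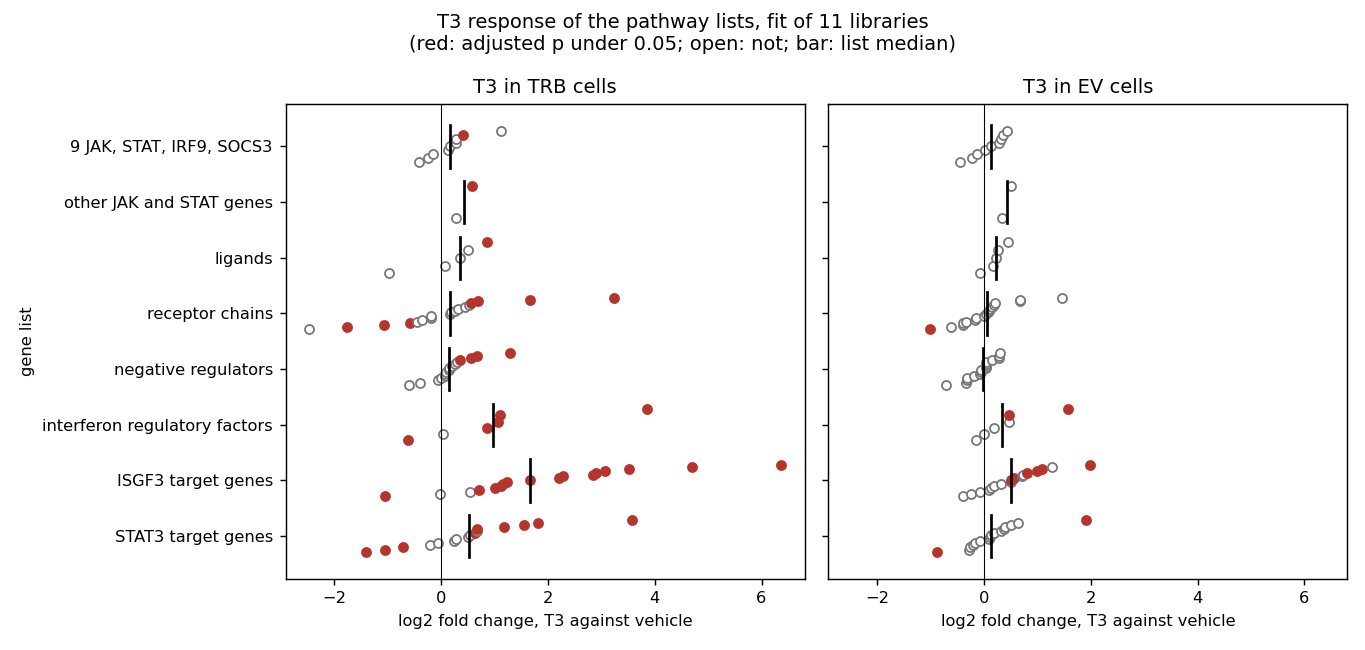
Log2 response to T3 (x axis) of each tested gene of the 8 lists in TRB cells (left) and EV cells (right) with 11 libraries, red where the adjusted p was under 0.05 and with a bar at the list median. The ISGF3 targets have a median of 1.66 in TRB cells, and the 9 JAK, STAT, IRF9 and SOCS3 genes one of 0.17.

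**Figure D5:**
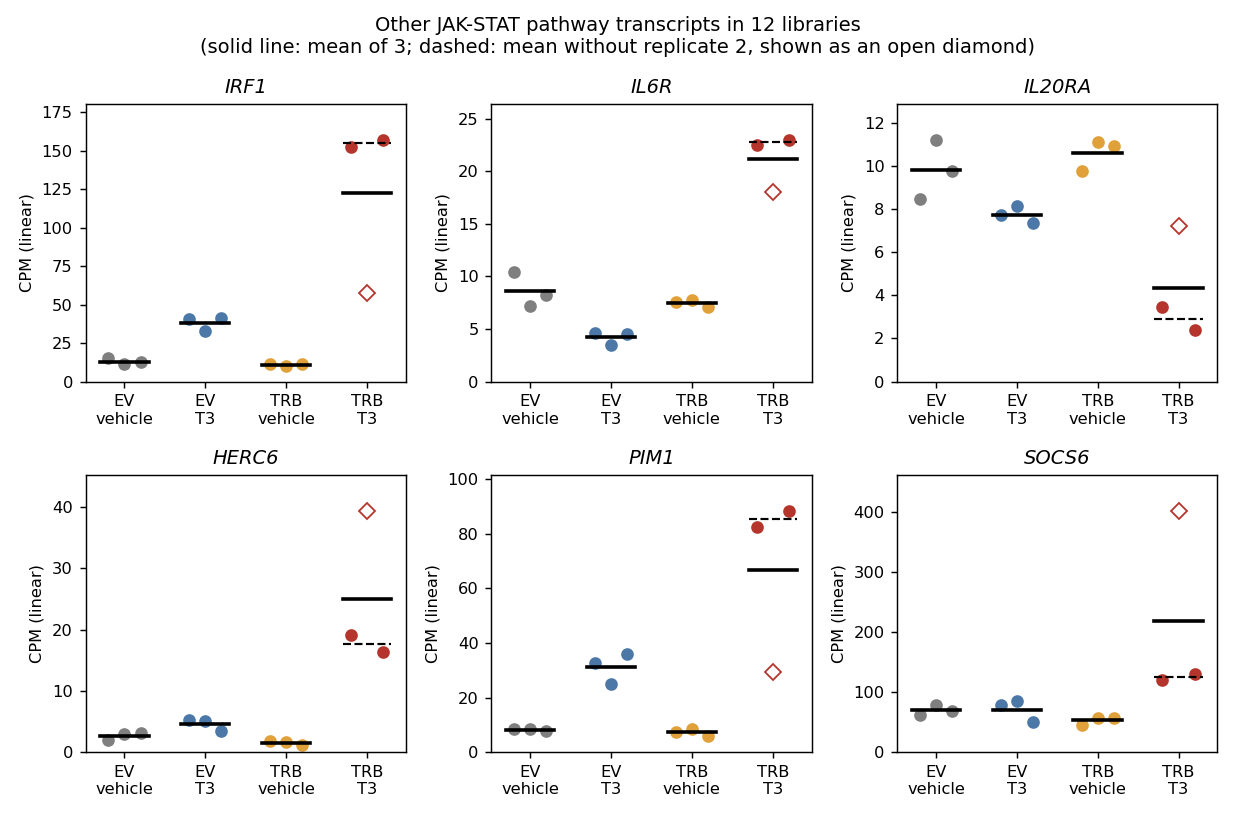
CPM on a linear scale of 6 other genes of the pathway in the 12 libraries by group, each point 1 library, with the mean of 3 as a solid line; the open diamond is TRB T3 replicate 2 and the dashed line the mean of the other 2. IRF1 stood at 153, 57.6 and 157 CPM in TRB T3 against 10.3 to 11.5 in TRB vehicle.

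Across the 11 libraries, log2 CPM of STAT2 followed that of IRF9 (Pearson r 0.78), TYK2 (0.77), STAT3 (0.74) and STAT6 (0.72). STAT3 and STAT6 had r 0.79. JAK1 and STAT5B ran in opposite directions (-0.73), as did JAK2 and TYK2 (-0.75). The libraries share group effects and a GC trend, and JAK2 and TYK2 lie at opposite ends of the GC range, so these values are descriptions. Among 10288 genes, the closest pattern to JAK1 was that of BTBD7 (r 0.97), to TYK2 that of CYHR1 (0.99), to STAT2 that of PSMD13 (0.98) and to STAT3 that of TMEM38A (0.96). HIST1H2BD was closest to STAT5B (0.95), MYBL2 to STAT6 (0.95), VTI1B to JAK2 (0.95), NECAP2 to SOCS3 (0.92) and USB1 to IRF9 (0.89).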

How the data were processed

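RNA of 12 SW1736 libraries was sequenced. For each library the authors deposited a file of raw read counts by gene symbol. Per the submitters' processing notes, the tools were CASAVA 1.7, STAR 2.7, HTSeq 0.10 and DESeq2, with genome build hg38; the annotation and strand setting are not given in the sources used here, so overlapping and antisense genes are uncertain. The 5 closing lines of each file were left out: non-unique alignments formed between 19.03% and 91.95% of all entries counted per library. A deposited table of normalized values with 11 library columns was not used.

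Groups came from the labels. Low counts were removed with filterByExpr (count 10, total 15) of edgeR 4.0.16 in R 4.3.3. After TMM scaling, quasi-likelihood fits with 1 coefficient per group were made on 12 libraries (14431 genes) and on 11 (14825). Tests were two-sided with Benjamini-Hochberg adjustment over all genes at 0.05. SE and 95% intervals come from the F statistic. GC offsets used a spline with 5 degrees of freedom on GENCODE 29 GC content by symbol, known for 86.6% of tested genes. Other settings were DESeq2 1.42.0, its size factors, no count filter, the compared groups alone, a replicate block and leaving out each library. The fit was also run on simulated counts for 11 libraries. These held no GC trend and no outlying library, so that run cannot show how the fits handle either. From each list, at most the 4 genes past the threshold with the largest change in the 11-library fit and mean log2 CPM of at least 1 are named; OASL, IFIT1, IFIT2, IFIT3, MX1, the markers and the 2 unadjusted calls were named after their values were seen. Members and lists were chosen with earlier results of these data known. One listed gene is not reported here.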

Additional observations from a re-analysis of the deposited data

Results flagged for a closer look

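The test of the difference of T3 responses with 12 libraries (edgeR, adjusted over all genes) called 0 of the 9 members and 2.59% of 14431 genes. By that test, the responses of 7 genes of the pathway lists differed between TRB and EV cells. These were 4 of 17 tested ISGF3 target genes, 1 of 18 receptor chains, and 1 higher and 1 lower of 16 STAT3 target genes. The test called 0 of 2 other JAK and STAT genes, 5 ligands, 16 negative regulators and 6 interferon regulatory factors. The difference, TRB minus EV on the log2 scale, was 2.54 for IL6R (adjusted p 0.00206), 3.21 for HERC6 (adjusted p 0.0117), 2.59 for IFIT5 (adjusted p 0.0104), 2.55 for MX1 (adjusted p 0.0273), 1.44 for DTX3L (adjusted p 0.0418), 2.50 for HIF1A (adjusted p 0.0191) and -1.35 for MYC (adjusted p 0.0351). With 11 libraries the values were 2.67, 2.79, 2.28, 2.52, 1.16, 1.98 and -1.12 in the same order.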

How the results depend on the processing

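Members called numbered 0 of 9 in all 5 comparisons with all 12 libraries, and again with DESeq2, its size factors, no count filter and the replicate block. Leaving out each library in turn gave 0 to 1 in the T3 response of TRB cells and 0 in the other comparisons. With GC offsets on 12 libraries 3 passed in the T3 response of TRB cells (JAK1 and IRF9 higher, STAT5B lower; 5532 of 12491 genes passed) and 2 between TRB and EV with T3 (JAK1 higher, STAT5B lower; 3763 of 12491 genes passed). With GC offsets on 11 libraries 5, 3 and 1 passed in the T3 response of TRB cells, TRB against EV with T3 and the difference of responses. STAT3 in TRB cells then stood at 0.19 (adjusted p 0.0256) and STAT2 in TRB against EV with T3 at 0.22 (adjusted p 0.0377), on the other side of 0 from the 12-library values. With the compared groups alone 2 passed in TRB against EV in vehicle (TYK2 at 0.35 and SOCS3 at 0.67, adjusted p 0.0363 and 0.0364), where 1563 of 14008 genes did. The cause was not tested. Signs of uncalled values changed in 27 of 540 values without 1 library and 24 of 306 in other settings.

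The main fits did not pair libraries by replicate number. Same-number correlations of deviations ran from -0.19 to 0.73, and 12 of 18 were over 0.1. The highest was between replicate 2 of EV T3 and replicate 2 of TRB T3, which depart with GC content in the same direction. The part of the GC trend in these correlations was not tested. For 7 of the 12 libraries, the best correlated library of another group had the same replicate number. A pairing by number can thus not be set aside. The replicate block left 0 members called in each comparison. Over all genes it gave 2278 against 2128 calls in the T3 response of TRB cells and 18 against 33 in that of EV cells. Over all genes the T3 response of TRB cells had as few as 634 calls, when only the compared groups were fitted, and as many as 7173, when GC offsets were used on 11 libraries. Depth limits IRF9 most, at 6 to 33 counts per library.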
